A study of Mus musculus with 18 samples.

Results

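The genes described here are 8 mouse genes of cyclic AMP (cAMP) signalling: the receptor genes Ramp3, Ramp1, Calcrl and Vipr1, the phosphodiesterase genes Pde4b, Pde4d and Pde3b, and the transcription factor gene Crem. They were taken from the 55487 gene entries of the expression tables by their symbols, each matched to 1 Ensembl gene ID, and they had been proposed with earlier results on these same libraries in view. Their levels are therefore given as a description without a test. The libraries are polyA RNA-seq libraries of regulatory T (Treg) cells, CD4+ T cells that carry the transcription factor Foxp3 and restrain immune responses. The cells came from wild-type mice under no treatment and were freshly prepared from 6 sites, with 3 libraries per site and 18 in all. The sites were peripheral blood, bone marrow, spleen, lymph node, liver and lung. Sex, age, sorting gates, tissue digestion and the number of animals were not given in the sources used here, and the replicates were not stated to be separate animals. The p-values below therefore measure only the spread between these libraries, which may be technical.

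cAMP is a second messenger made by adenylyl cyclases when a ligand engages a receptor coupled to the stimulatory G protein, and it is broken down by phosphodiesterases. It activates protein kinase A, which phosphorylates the factor CREB and so switches on immediate early genes, and it activates the exchange factor Epac. Calcrl encodes a receptor for neuropeptides and vascular peptides that needs a partner of the RAMP family: with Ramp1 it binds calcitonin gene-related peptide, and with Ramp2 or Ramp3 it binds adrenomedullin. Crem belongs to the CREB family and also yields ICER, a short repressor that cAMP itself induces from an internal promoter. In T cells cAMP is known as a brake on activation, and Treg cells are known to hold much of it.

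Crem and Ramp3 stood highest in lung Treg cells, next in liver Treg cells and far lower at the other 4 sites. The mean level of Crem was 1337 ± 32.9 TPM (transcript abundance per length and library total, SD, n = 3) in lung against 11.78 ± 4.43 TPM in blood, and that of Ramp3 was 782.5 ± 12.3 TPM in lung against 2.617 ± 0.658 TPM in blood. Pde4b, Pde4d and Pde3b, whose products break down cAMP, were also highest in lung, though Pde4b was higher in blood than in lung when libraries were scaled to T cell genes. Ramp1 and Vipr1 were lowest in lung. In TPM as deposited, Calcrl, the receptor that both RAMP genes serve, overlapped between lung and every other site. Scaled to T cell genes, its mean level was 13.16 in lung, 27.89 in blood and 7.09 in spleen.

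Counted over libraries, 5 of the 8 genes (Crem, Ramp3, Pde4b, Pde4d and Pde3b) had all 3 lung values above all 15 values of the other sites. Ramp1 and Vipr1, 2 of the 8, had all 3 lung values below the other 15. Over the 16694 genes with a site mean no lower than 1 TPM, 6.24% lay wholly above and 6.63% wholly below. Set against each site alone, the same 5 and 2 genes lay apart, where the shares of all genes wholly above and wholly below were 20.5% and 31.5% for blood, 16.2% and 37.2% for bone marrow, 19.4% and 24.7% for spleen, 18.5% and 35.4% for lymph node, and 15.4% and 15% for liver. All 8 genes passed that filter on low values. Since the genes were chosen with these levels known, nothing is read from the counts.

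**Figure D1:**
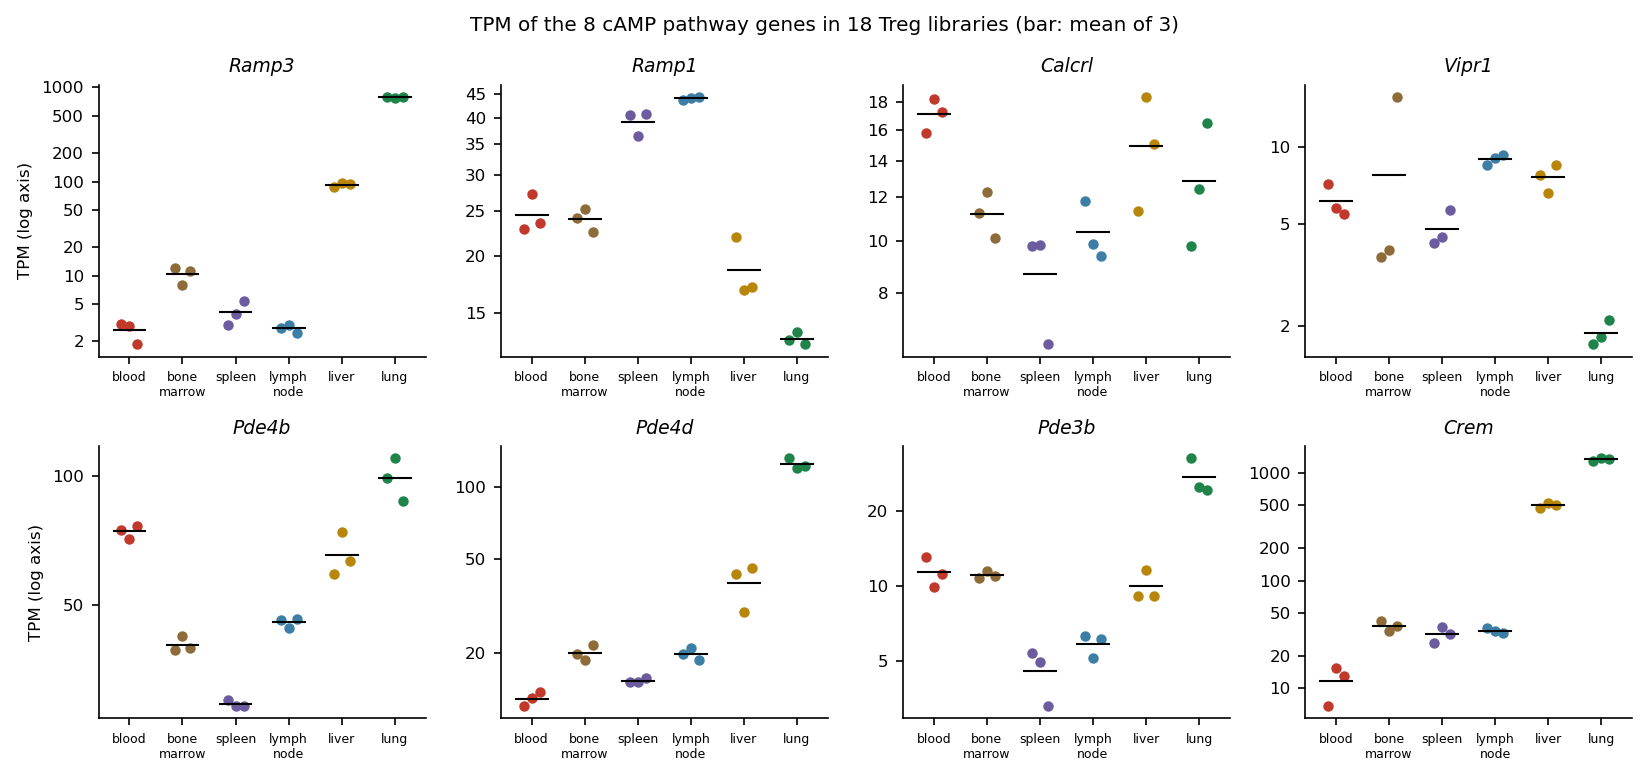
TPM of the 8 genes by site on log axes, with 1 point per library and a bar at the mean of 3. Crem and Ramp3 rise to liver and again to lung, with lung means of 1337 and 782.5 TPM, while Ramp1 and Vipr1 are lowest in lung, at 13.16 and 1.877 TPM.

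TPM scales each library to the same total per unit of transcript length, so that levels can be set side by side between genes, but the number of reads behind a value is not kept and depth is unknown. The libraries listed 14314 to 19797 genes above 0, fewest in liver and most in bone marrow. For genes at or above 100 TPM, replicates of a site had a median coefficient of variation that ran from 2.55% in lymph node to 10.5% in liver. Foxp3 was present at every site, with means from 88.65 TPM in blood to 238.54 TPM in lymph node. Together, 8 Treg marker genes summed to 567.8 to 581.2 TPM in blood and 3614 to 3656 TPM in lung. Of these, Ctla4 (1485.64 TPM in lung), Tnfrsf18, Tnfrsf4 and Tigit had their highest mean in lung. Foxp3, Il2ra and Ikzf4 had theirs in lymph node, and Ikzf2 in liver. Il2ra had a mean of 76.25 TPM in lung and 100.54 TPM in blood. A list of 16 myeloid markers summed to 28820 to 29710 TPM in blood and 44880 to 45160 TPM in bone marrow. It summed to 41.21 to 87.08 TPM in lymph node and 1797 to 1851 TPM in lung. For 7 platelet markers the sum was 2748 to 2868 TPM in blood, 70.49 to 82.26 TPM in bone marrow and 2.18 to 22.61 TPM in lung. For 7 erythroid markers it was 10930 to 11970 TPM in liver and 1426 to 1540 TPM in lung. In lung, 7 of 10 epithelial markers reached a mean of 1 TPM, while Cldn18 was at 0. The list summed to 230.5 to 306.3 TPM there, most of it from Scgb1a1 at 225.31 TPM. Of the 7, Ager had its lowest mean in lung, at 2.24 TPM. Epcam had 4.02 TPM in lung, 10.37 TPM in bone marrow and 11.33 TPM in spleen. At each other site 2 or 3 of the 10 reached 1 TPM, with sums from 16.41 to 31.36 TPM. The part of these other transcripts in the levels below was not tested, and fewer cells of a type cannot be told apart from less RNA per cell in bulk samples.

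The RAMP genes are shown first with their promoter windows, because their levels in lung lay at opposite ends of their orders. Ramp3 (ENSMUSG00000041046, protein coding) lies at chr11:6658521-6677475 on the plus strand and Ramp1 (ENSMUSG00000034353, protein coding) at chr1:91179822-91225196 on the plus strand, both in GRCm38. The windows, from RefSeq on GRCm38.p6, run from 250 bases before to 50 bases after the annotated start and are written 5′ to 3′ on the gene's strand. Capitals mark the core of the cAMP response element bound by CREB family factors, TGACG or its reverse complement CGTCA. The Ramp3 window is chr11:6658283-6658582 and the Ramp1 window is chr1:91179572-91179871.
Ramp3: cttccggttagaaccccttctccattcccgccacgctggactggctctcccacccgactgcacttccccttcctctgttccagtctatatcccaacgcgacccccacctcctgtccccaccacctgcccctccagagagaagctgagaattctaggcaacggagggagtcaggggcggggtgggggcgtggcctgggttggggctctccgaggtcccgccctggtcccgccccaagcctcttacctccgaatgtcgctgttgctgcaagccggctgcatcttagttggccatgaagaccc
Ramp1: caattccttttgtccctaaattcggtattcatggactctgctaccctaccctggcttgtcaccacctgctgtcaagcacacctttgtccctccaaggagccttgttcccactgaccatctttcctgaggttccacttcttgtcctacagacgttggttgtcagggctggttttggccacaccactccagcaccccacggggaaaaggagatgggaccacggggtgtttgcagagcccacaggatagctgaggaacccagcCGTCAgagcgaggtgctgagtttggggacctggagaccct
The core motif was absent from the Ramp3 letters and occurred in Ramp1 at position 10 counted from the start site. Among 32851 RefSeq promoter windows of 300 bases, 20.8% held the core on either strand and 1.79% held the full palindrome TGACGTCA, which contains the core on both strands.

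Ramp3 encodes a single-pass membrane protein that escorts Calcrl to the cell surface. Its 3 lung libraries held 794.25, 769.71 and 783.62 TPM and its 3 liver libraries 86.96, 97.7 and 94.25 TPM. Bone marrow followed with 11.95, 8.04 and 11.1 TPM. Spleen held 2.98, 3.91 and 5.39 TPM, lymph node 2.8, 2.99 and 2.49 TPM, and blood 3.05, 2.94 and 1.86 TPM. The lung, liver and marrow values did not overlap with each other or with the rest, whereas spleen, lymph node and blood overlapped as neighbours in the order. The ratio of the lung mean to the liver mean was 8.42, and to the blood mean 299. On the log2(TPM + 1) scale the lung minus liver difference was 3.06 ± 0.18 (SE) and the lung minus blood difference 7.78 ± 0.18. Ramp3 ranked between 179 and 188 among all genes in the lung libraries. Gm11978, which overlaps Ramp3 on the opposite strand, had 0 to 2.47 TPM in lung. The library kit keeps strand, but whether counting used it is not given in the sources used here.

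Ramp1, the partner that makes Calcrl a receptor for calcitonin gene-related peptide, had 43.78, 44.19 and 44.44 TPM in lymph node and 40.61, 36.45 and 40.73 TPM in spleen. Blood held 22.91, 27.23 and 23.52 TPM and bone marrow 24.16, 25.33 and 22.54 TPM. Liver held 22.01, 16.78 and 17.1 TPM and lung 13.07, 13.61 and 12.79 TPM. Blood and bone marrow overlapped, and every other pair of neighbours in this order was separate. The lung minus lymph node difference was -1.67 ± 0.11 on the log2 scale, and the lung minus liver difference was -0.46 ± 0.11.

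The third family gene, Ramp2, stayed at a mean of 1.82 TPM or less at every site, with 1 lung library at 4.58 TPM and 1 liver library at 3.95 TPM. It did not pass the test over the 6 sites (limma F test, adjusted p = 0.0971). The composition of the family therefore shifted between its other members. Ramp3 made up 98.1% ± 0.28 (SD, n = 3) of the summed RAMP TPM in lung and 82.0% ± 2.5 in liver. Its share was 30% ± 5.3 in bone marrow, 9.58% ± 2.2 in blood, 9.4% ± 2.4 in spleen and 5.87% ± 0.52 in lymph node. The summed RAMP level itself was 797.5 ± 12 TPM in lung, 113.3 ± 4.58 TPM in liver and between 27.24 and 46.99 TPM at the other sites.

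Calcrl (ENSMUSG00000059588, chr2:84330626-84425411, minus strand) is the receptor that these partners share. It had 9.75, 12.42 and 16.48 TPM in lung and 11.34, 18.37 and 15.03 TPM in liver. Blood was highest, at 15.78, 18.2 and 17.21 TPM. Bone marrow held 11.23, 12.3 and 10.09 TPM, lymph node 11.83, 9.86 and 9.37 TPM, and spleen 9.76, 9.8 and 6.44 TPM. Every pair of neighbours in the order overlapped, and the means lay between 8.667 TPM in spleen and 17.06 TPM in blood. With T cell gene scaling the mean level was 27.89 in blood, 13.16 in lung, 13.1 in liver and 12.78 in bone marrow. It was 7.53 in lymph node and 7.09 in spleen, so the range was wider. The TPM ratio of Ramp3 to Calcrl was 63.7 ± 17.0 in lung and 6.42 ± 1.2 in liver, and 0.939 or less at the other sites. The ratio of Ramp1 to Calcrl was 1.07 ± 0.28 in lung and reached 4.31 ± 0.54 in lymph node and 4.73 ± 1.4 in spleen.

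**Figure D2:**
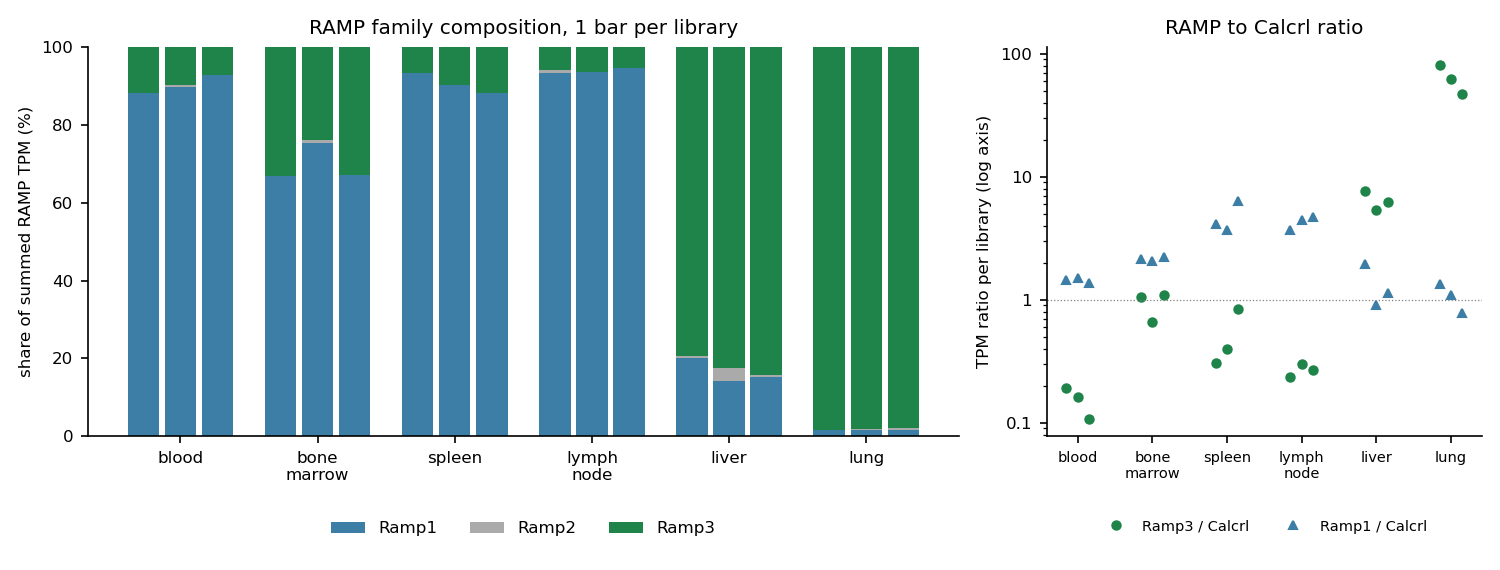
Left, the share of summed RAMP TPM held by Ramp1, Ramp2 and Ramp3 in each of the 18 libraries. Right, the TPM ratio of Ramp3 (circles) and Ramp1 (triangles) to Calcrl on a log axis with 1 point per library; the Ramp3 ratio is 47.5 to 81.5 in lung and 0.108 to 0.193 in blood.

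Calcrl and Ramp3 are also genes of endothelium, so the endothelial and stromal markers are given beside them. Of 16 such markers, 5 reached a mean of 1 TPM in lung, and the list summed to 118.8 to 144.7 TPM there. Most of that sum was Pecam1 at 122.56 TPM, a gene that was also between 68.46 and 103.38 TPM at the other sites. In lung, Vwf had a mean of 2.79 TPM and Cdh5 and Cldn5 each 1.09 TPM, while Tek and Pdgfra were at 0 in all 3 libraries. In liver, the second site for Ramp3, 9 of the 16 reached a mean of 1 TPM and the sum was 115.7 to 141.6 TPM, with Egfl7 at 12.62 TPM, Kdr at 5.16 TPM, Cldn5 at 2.24 TPM, Cdh5 at 2.08 TPM and Tek at 1.56 TPM. Their part in the Ramp3 and Calcrl levels was not tested.

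Vipr1 (ENSMUSG00000032528, chr9:121642716-121672954, plus strand) encodes a receptor for vasoactive intestinal peptide found on resting T cells. Its values were 1.7, 1.81 and 2.12 TPM in lung, the lowest site. Lymph node held 8.49, 9.02 and 9.33 TPM, liver 7.76, 6.64 and 8.53 TPM, and blood 7.19, 5.79 and 5.49 TPM. Spleen held 4.22, 4.45 and 5.67 TPM. Bone marrow was uneven, with 3.71 and 3.98 TPM in 2 libraries and 15.67 TPM in replicate 3. Without that library the marrow mean was 3.84 TPM (n = 2) in place of 7.787 TPM. All neighbours in the order overlapped except spleen and lung, and the lung minus lymph node difference was -1.79 on the log2 scale.

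The genes around these members were read from lists of 100 further genes of the pathway, of which 69 passed the filter and were tested with limma on log2(TPM + 1), with Benjamini-Hochberg adjustment over all 16694 genes. Over the 6 sites, 55 of the 69 differed at an adjusted p under 0.05, that is 79.7%, against 68.0% of all genes tested. Against blood, 24 were higher and 24 lower in lung, where 17.3% of all genes were higher and 26.4% lower. Against bone marrow the split was 21 higher and 18 lower (all genes 13.2% and 30.3%), and against spleen 32 higher and 8 lower (18% and 22.8%). Against lymph node it was 28 higher and 14 lower (14.9% and 27.4%), and against liver 18 higher and 17 lower (17.3% and 17.6%). The median lung difference over the 69 genes lay between -0.09 and 0.39 on the log2 scale, and that of all genes between -0.27 and 0. These 5 comparisons share the lung libraries. The lists were drawn up with earlier results of these data known. Nothing is therefore read from counts or shares of calls over them, here or below.

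When each library was scaled to 20 T cell genes, the splits of the pathway genes became 14 higher and 35 lower against blood, 19 and 24 against bone marrow, 39 and 5 against spleen, 36 and 6 against lymph node, and 24 and 10 against liver. Over all 16694 genes, the same scaling gave 1212 higher and 8782 lower against blood, and 1725 and 6204 against bone marrow. It gave 4328 and 2282 against spleen, 4416 and 2036 against lymph node, and 4095 and 2033 against liver. That scaling moved the median of all genes by -0.55 against blood, -0.13 against bone marrow, 0.17 against spleen, 0.31 against lymph node and 0.11 against liver. A median-ratio scaling moved it by 0.15 against bone marrow and 0.19 against lymph node.

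In all 5 comparisons, 11 of the 69 genes were higher in lung and 5 were lower, where 5.65% and 6.70% of all genes did so. The 11 were Calca, Adora2a, Gnai3, Prkar1a, Rapgef3, Pde2a, Pde7a, Sik3, Sik1, Nr4a3 and Areg. The 5 were Hrh2, Gnai2, Adcy7, Prkaca and Pde11a. Against liver, the call of Sik3 was lost without liver replicate 1 (adjusted p = 0.134), lung replicate 1 (0.0609) or lung replicate 2 (0.134), and that of Nr4a3 without liver replicate 3 (0.0573) or lung replicate 3 (0.0784). The call of Gnai2 against spleen was lost without spleen replicate 3 (0.0627) or lung replicate 1 (0.102). The call of Hrh2 against liver had an adjusted p of 0.0466 and rose to between 0.0526 and 0.183 when any of 15 libraries was left out, and its call against spleen was lost without spleen replicate 1 (0.0563) or 2 (0.101) or lung replicate 1 (0.114). With T cell gene scaling, the calls against blood of Gnai3 (0.119), Prkar1a (0.247) and Pde7a (0.332), that of Sik3 against bone marrow (0.059) and that of Prkaca against liver (0.0995) were lost, as were those of Hrh2 and Gnai2 against spleen and liver and that of Gnai2 against lymph node. With library weights the calls against liver of Areg (0.231), Sik1 (0.0549), Nr4a3 (0.374), Sik3 (0.165), Pde7a (0.188), Pde11a (0.104), Prkaca (0.116) and Hrh2 (0.17) were lost. With only the 2 sites compared, the calls against liver of Prkar1a (0.0862), Prkaca (0.182), Pde11a (0.0611), Sik1 (0.082), Nr4a3 (0.0605), Sik3 (0.263), Gnai2 (0.206) and Hrh2 (0.358) were lost, as were those of Gnai2 (0.139) and Hrh2 (0.216) against spleen and of Hrh2 (0.062) against lymph node. Median-ratio scaling ended the calls of Gnai2 against spleen (0.0982) and lymph node (0.0787) and of Hrh2 against liver (0.0602), and without the filter on low values Hrh2 was not called against liver (0.0725). Calca, Adora2a, Rapgef3, Pde2a and Adcy7 kept all 5 calls under every alternative run.

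**Figure D3:**
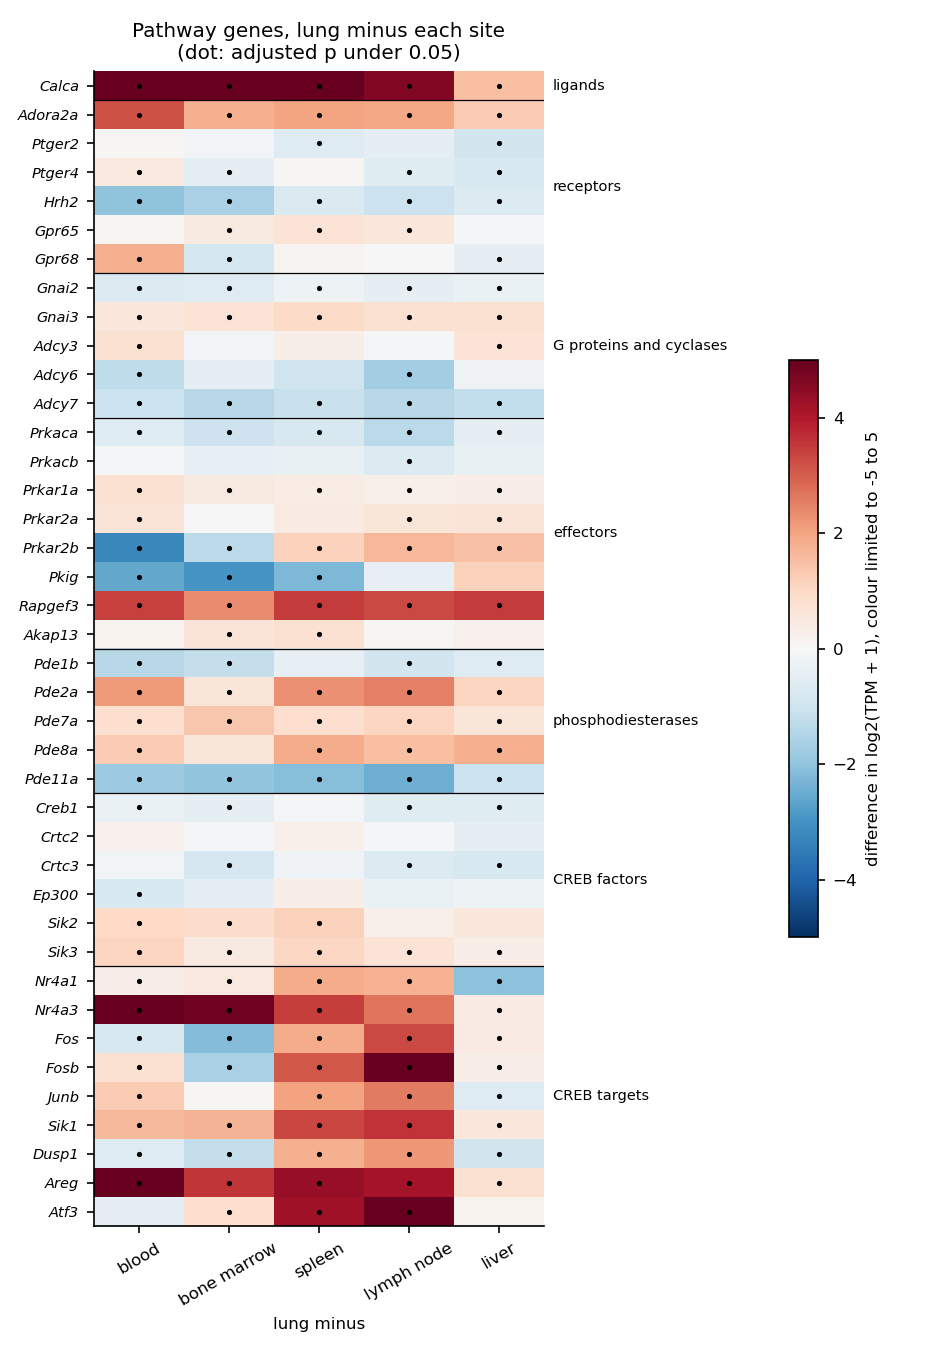
Difference in log2(TPM + 1) between lung and each other site for pathway genes named by rule, grouped by role, with colour limited to 5 in either direction and a dot where the limma adjusted p is under 0.05. Calca, Adora2a, Rapgef3 and Areg are higher in all 5 columns, and Adcy7 is lower in all 5.

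Among 7 ligand genes, Calca alone passed the filter. Calca (ENSMUSG00000030669, chr7:114631478-114636357, minus strand) yields the hormone calcitonin or calcitonin gene-related peptide, a ligand of Calcrl with Ramp1, by alternative splicing, and a gene-level TPM does not separate these products. Its lung libraries held 61.88, 93.46 and 123.98 TPM and its liver libraries 28.56, 30.3 and 35.02 TPM. Lymph node held 2.01, 2.62 and 3.47 TPM and bone marrow 1.51, 1.47 and 2.28 TPM. It was listed at 0 in all 3 blood libraries and in 2 of 3 spleen libraries. The lung values lay above the liver values, and both above the other sites, with a lung minus liver difference of 1.49 ± 0.24 on the log2 scale (limma adjusted p = 0.00018) and a lung minus lymph node difference of 4.63 ± 0.24 (3.48e-10). Pulmonary neuroendocrine cells also make this transcript. Of 8 markers of such cells, 7 were at 0 in all 3 lung libraries, with a sum of 0.0 to 0.63 TPM. In liver, the second site for Calca, 6 were at 0 and the sum was 0.73 to 3.33 TPM. That list was drawn up after the Calca values had been seen, and the part of such cells in them was not tested. The peptide genes Vip and Iapp were at 0 in all 18 libraries, and Adm, the adrenomedullin gene, had a mean of 0.407 TPM over them. The Calca window (RefSeq, GRCm38.p6, chr7:114636308-114636607, minus strand) held 1 core motif, in capitals, that began at position -65.
Calca: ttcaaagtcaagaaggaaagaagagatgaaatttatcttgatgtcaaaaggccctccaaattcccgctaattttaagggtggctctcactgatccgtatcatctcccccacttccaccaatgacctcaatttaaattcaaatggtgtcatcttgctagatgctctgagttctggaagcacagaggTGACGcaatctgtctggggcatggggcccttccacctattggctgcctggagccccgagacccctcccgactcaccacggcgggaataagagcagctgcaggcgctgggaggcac

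Of 26 other receptor genes, 12 were tested and 10 differed over the sites, a share of 83.3% against 68.0% of all genes. Adora2a, the adenosine receptor that raises cAMP in T cells, rose in lung in all 5 comparisons. It held 216.38, 184.46 and 145.92 TPM in lung against 71.07, 63.55 and 94.09 TPM in liver and 20.71, 18.86 and 16.99 TPM in blood. The lung minus liver difference was 1.25 ± 0.18 (limma adjusted p = 4.73e-05) and the lung minus blood difference 3.19 ± 0.18 (5.58e-10). The prostaglandin E2 receptor gene Ptger4 had a lung minus liver difference of -0.76 ± 0.08 (2.6e-06). The histamine receptor gene Hrh2 had 1.5, 5.01 and 4.62 TPM in lung and a mean of 16.77 TPM in blood.

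Below the receptors lie the G proteins and the cyclases they control. Of 15 G protein and cyclase genes, 9 were tested and 7 differed over the sites, a share of 77.8% against 68.0% of all genes. Gnas, which encodes the stimulatory alpha subunit, had means between 402.54 and 486.08 TPM over the 6 sites, and differed over them (limma F test, adjusted p = 0.00131). Its lung difference was -0.17 ± 0.04 against blood (0.00593) and -0.09 ± 0.04 against liver (0.157). Adcy7, a cyclase of blood cells, held 35.25, 45.13 and 40.2 TPM in lung, below all 15 other libraries, and fell by between 1.09 and 1.39 on the log2 scale against the 5 sites (limma, adjusted p 3.3e-08 or less). The inhibitory subunit genes differed in direction: against liver Gnai3 had a lung difference of 0.75 ± 0.07 (7.49e-07) and Gnai2 one of -0.34 ± 0.08 (0.00376), but with T cell gene scaling Gnai3 turned to -0.15 against blood and Gnai2 to 0.07 against spleen and 0.04 against lymph node.

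Among 16 tested effector genes, 8 differed over the sites, a share of 50% against 68.0% of all genes. Rapgef3, which encodes the exchange factor Epac1, had 24.15, 17.98 and 13.88 TPM in lung and a mean of 2.71 TPM or less at each other site. Its lung minus liver difference was 3.49 ± 0.35 (limma adjusted p = 1.39e-06). Among the protein kinase A genes, the regulatory subunit gene Prkar1a had a lung minus liver difference of 0.35 ± 0.07 (0.000646) and the catalytic subunit gene Prkaca one of -0.48 ± 0.13 (0.0112). The regulatory subunit gene Prkar2b had differences of -3.23 ± 0.23 against blood (1.45e-08) and -1.32 ± 0.23 against bone marrow (0.000282). Its differences were 1.16 ± 0.23 against spleen (0.000932), 1.65 ± 0.23 against lymph node (3.41e-05) and 1.48 ± 0.23 against liver (0.000142). Blood and bone marrow had the largest myeloid and platelet sums, and the part of those transcripts in Prkar2b was not tested. Against liver, Prkar2a differed by 0.63 ± 0.19 (0.0193), a call lost with library weights (0.153), with only the 2 sites compared (0.208), and without liver replicate 2 (0.0555) or lung replicate 2 (0.0899), and Prkacb by -0.38 ± 0.21 (0.19). Under T cell gene scaling the Prkar1a difference against blood went from 0.78 to 0.10 (adjusted p = 0.247) and the Prkaca difference against liver to -0.28 (0.0995).

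The phosphodiesterase members belong to the families that degrade cAMP in T cells. Pde4d (ENSMUSG00000021699, chr13:108449948-109953461, plus strand) held 132.3, 120.87 and 122.51 TPM in lung and 43.25, 29.91 and 45.61 TPM in liver. Bone marrow held 19.88, 18.61 and 21.57 TPM and lymph node 19.81, 21.03 and 18.68 TPM. Spleen held 15.1, 15.06 and 15.65 TPM and blood 11.97, 12.9 and 13.72 TPM. Bone marrow and lymph node overlapped and all other neighbours were separate, so that Pde4d had the same first and second site as Crem and Ramp3. The ratio of the lung mean to the liver mean was 3.16 and to the blood mean 9.74.

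Pde4b (ENSMUSG00000028525, chr4:102087543-102607259, plus strand), another enzyme of the PDE4 family, had a narrower range. It held 98.88, 110.02 and 87.57 TPM in lung, 74.92, 71.38 and 76.52 TPM in blood, and 58.86, 74.0 and 63.34 TPM in liver. Lymph node held 46.07, 44.06 and 46.34 TPM, bone marrow 39.07, 42.21 and 39.52 TPM, and spleen 29.84, 28.97 and 28.99 TPM. Blood and liver overlapped, and the ratio of the lung mean to the blood mean was 1.33. That direction turned when libraries were scaled to T cell genes, where Pde4b had a scaled level of 121.51 in blood and 101.04 in lung. RefSeq gave 4 start windows for Pde4b, and the core motif was in that at chr4:102421305-102421604, beginning at position -34.
Pde4b: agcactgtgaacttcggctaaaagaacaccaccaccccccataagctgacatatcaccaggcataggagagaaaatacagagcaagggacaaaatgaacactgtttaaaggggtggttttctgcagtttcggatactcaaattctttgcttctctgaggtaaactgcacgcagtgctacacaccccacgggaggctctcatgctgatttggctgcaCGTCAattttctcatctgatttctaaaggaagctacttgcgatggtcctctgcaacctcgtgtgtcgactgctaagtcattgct

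Pde3b (ENSMUSG00000030671, chr7:114415281-114539251, plus strand), a phosphodiesterase that cyclic GMP inhibits, held 32.35, 24.9 and 24.28 TPM in lung. Blood held 13.07, 9.89 and 11.19 TPM, bone marrow 10.8, 11.52 and 10.97 TPM, and liver 9.16, 11.6 and 9.12 TPM. Lymph node held 6.34, 5.18 and 6.15 TPM and spleen 5.38, 4.98 and 3.32 TPM. Lung was separate from all sites, while blood, bone marrow and liver overlapped as neighbours. The ratio of the lung mean to the liver mean was 2.73, and liver, which was second for Crem, Ramp3 and Pde4d, came after blood and bone marrow for Pde3b.

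Of 13 other phosphodiesterase genes, 9 were tested and all 9 differed over the sites, where 68.0% of all genes did so. Pde2a, which cyclic GMP stimulates, had the highest mean over the 18 libraries, although Pde1b exceeded it in blood (51.64 against 46.1 TPM) and in lymph node (37.31 against 35.14 TPM). Pde2a held 199.02, 204.53 and 210.5 TPM in lung and a mean of 135.48 TPM in bone marrow. Its lung minus liver difference was 1.08 ± 0.12 (limma adjusted p = 6.42e-06) and its lung minus bone marrow difference 0.59 ± 0.12 (0.0011). Pde1b, a calmodulin-dependent enzyme, had a lung minus blood difference of -1.37 ± 0.17 (8.36e-06). The summed level of the 16 phosphodiesterase genes was 554.9 ± 15.3 TPM (SD, n = 3) in lung, 297.1 ± 10.4 TPM in bone marrow, 292.1 ± 14.3 TPM in liver and between 159.0 and 247.8 TPM at the other sites. Pde4d made up 22.6% of that sum in lung, 13.5% in liver and 5.19% in blood, whereas Pde4b made up 17.8% in lung and 30% in blood.

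**Figure D4:**
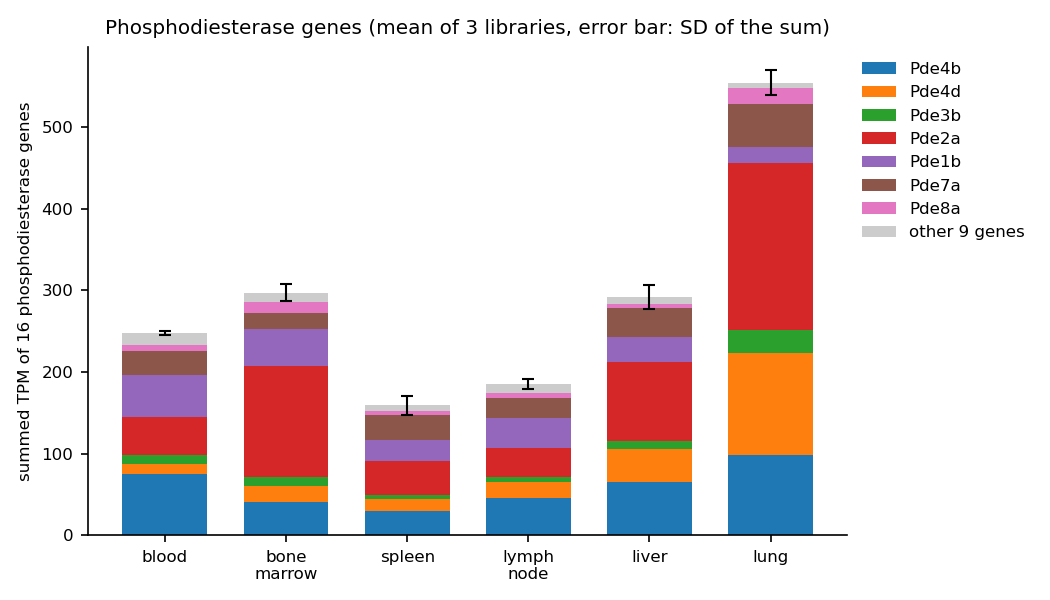
Summed TPM of 16 phosphodiesterase genes by site, with stacked segments for the mean of 3 libraries per gene and an error bar for the SD of the sum. The lung bar reaches 554.9 TPM, with Pde2a, Pde4d and Pde4b as its main segments.

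Crem (ENSMUSG00000063889, GRCm38 chr18:3266048-3337748, minus strand) had the highest level of the 8 genes in lung, at 1300.48, 1364.68 and 1344.96 TPM. Liver held 476.19, 528.63 and 503.88 TPM. Bone marrow held 42.57, 34.28 and 37.64 TPM, lymph node 36.05, 34.06 and 32.95 TPM, and spleen 26.24, 37.02 and 32.19 TPM. Blood was lowest, at 6.87, 15.47 and 13.0 TPM. Lung, liver and blood were each separate from the rest, whereas bone marrow, lymph node and spleen overlapped as neighbours. The ratio of the lung mean to the liver mean was 2.66, to the bone marrow mean 35, and to the blood mean 113. The lung minus liver difference was 1.41 ± 0.2 on the log2 scale and the lung minus blood difference 6.78 ± 0.2.

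Within its library, Crem ranked between 120 and 130 of all genes in lung, between 239 and 269 in liver, and between 7288 and 9576 in blood. The annotation gives it 39 transcripts, and the gene-level values do not separate ICER from the longer forms. Gm6225, on the opposite strand with overlapping exons, had a mean of 6.16 TPM in lung and 1.6 TPM or less elsewhere. Scaled to T cell genes, the Crem level was 1366.16 in lung, 443.14 in liver and 19.21 in blood, with the order of these sites kept.

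The other CREB family genes had a narrower range than Crem. Creb1 had a mean of 41.81 TPM in lung and 64.0 TPM in liver, and its lung minus liver difference was -0.59 ± 0.10 (limma adjusted p = 0.000214). Atf1 had means between 48.16 and 67.08 TPM. Crem thus made up 92.9% ± 0.53 (SD, n = 3) of the summed TPM of Crem, Creb1 and Atf1 in lung, 80.6% ± 2.6 in liver, between 20.8% and 25.7% in lymph node, bone marrow and spleen, and 9.4% ± 3.6 in blood. Of 10 CREB factor genes outside the 8, all 10 were tested. Over the sites 8 differed, a share of 80% against 68.0% of all genes. The CREB coactivator gene Crtc3 had a lung minus liver difference of -0.76 ± 0.11 (4.33e-05). Sik3, a kinase gene whose product restrains those coactivators, was higher in lung than in blood by 1.07 ± 0.12 (1.51e-06).

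The list of 12 CREB target genes holds immediate early genes that many other signals also induce. All 12 differed over the sites, where 68.0% of all genes did so. In lung, 12 were higher than in spleen (all genes 18%) and 12 than in lymph node (14.9%). The median differences were 3.05 and 3.40 on the log2 scale. Against liver 5 were higher and 5 lower (all genes 17.3% and 17.6%), with a median of 0.04. Against blood 9 were higher and 2 lower (17.3% and 26.4%), and against bone marrow 8 and 3 (13.2% and 30.3%). Areg, the tissue repair factor amphiregulin, held 138.86, 174.71 and 157.52 TPM in lung and 86.79, 102.86 and 85.17 TPM in liver, and its blood values were 0.4, 0.57 and 0.45 TPM. Its lung minus liver difference was 0.77 ± 0.18 (limma adjusted p = 0.00329). Nr4a3, a nuclear receptor gene, had a mean of 142.44 TPM in lung, 107.8 TPM in liver and 2.12 TPM in blood.

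Of the 12, 3 (Areg, Sik1 and Nr4a3) had their highest mean in lung, as Crem did. The highest mean was in liver for 5 (Nr4a1, Nr4a2, Junb, Per1 and Ppp1r15a), in bone marrow for 3 (Fos, Fosb and Dusp1) and in blood for Atf3. Nr4a1, an antigen receptor response gene, held 3227.22, 3197.57 and 3444.3 TPM in liver and 731.43, 793.01 and 832.14 TPM in lung, a lung minus liver difference of -2.07 ± 0.05 (limma adjusted p = 1.75e-13). Fos was highest in bone marrow, at 2184.12, 2199.6 and 2209.72 TPM, with a lung mean of 486.05 TPM. Dusp1, a phosphatase gene, was likewise highest in bone marrow, with a mean of 1200.53 TPM, and its lung minus liver difference was -0.90 ± 0.04 (5.46e-10). Bone marrow and blood, where Fos and Dusp1 exceeded their lung levels, had the largest myeloid sums. Dusp1 also exceeded its lung mean of 520.5 TPM in liver, at 968.44 TPM. The myeloid sum was 187.7 to 420 TPM in liver and 1797 to 1851 TPM in lung. The part of myeloid transcripts in these levels was not tested.

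**Figure D5:**
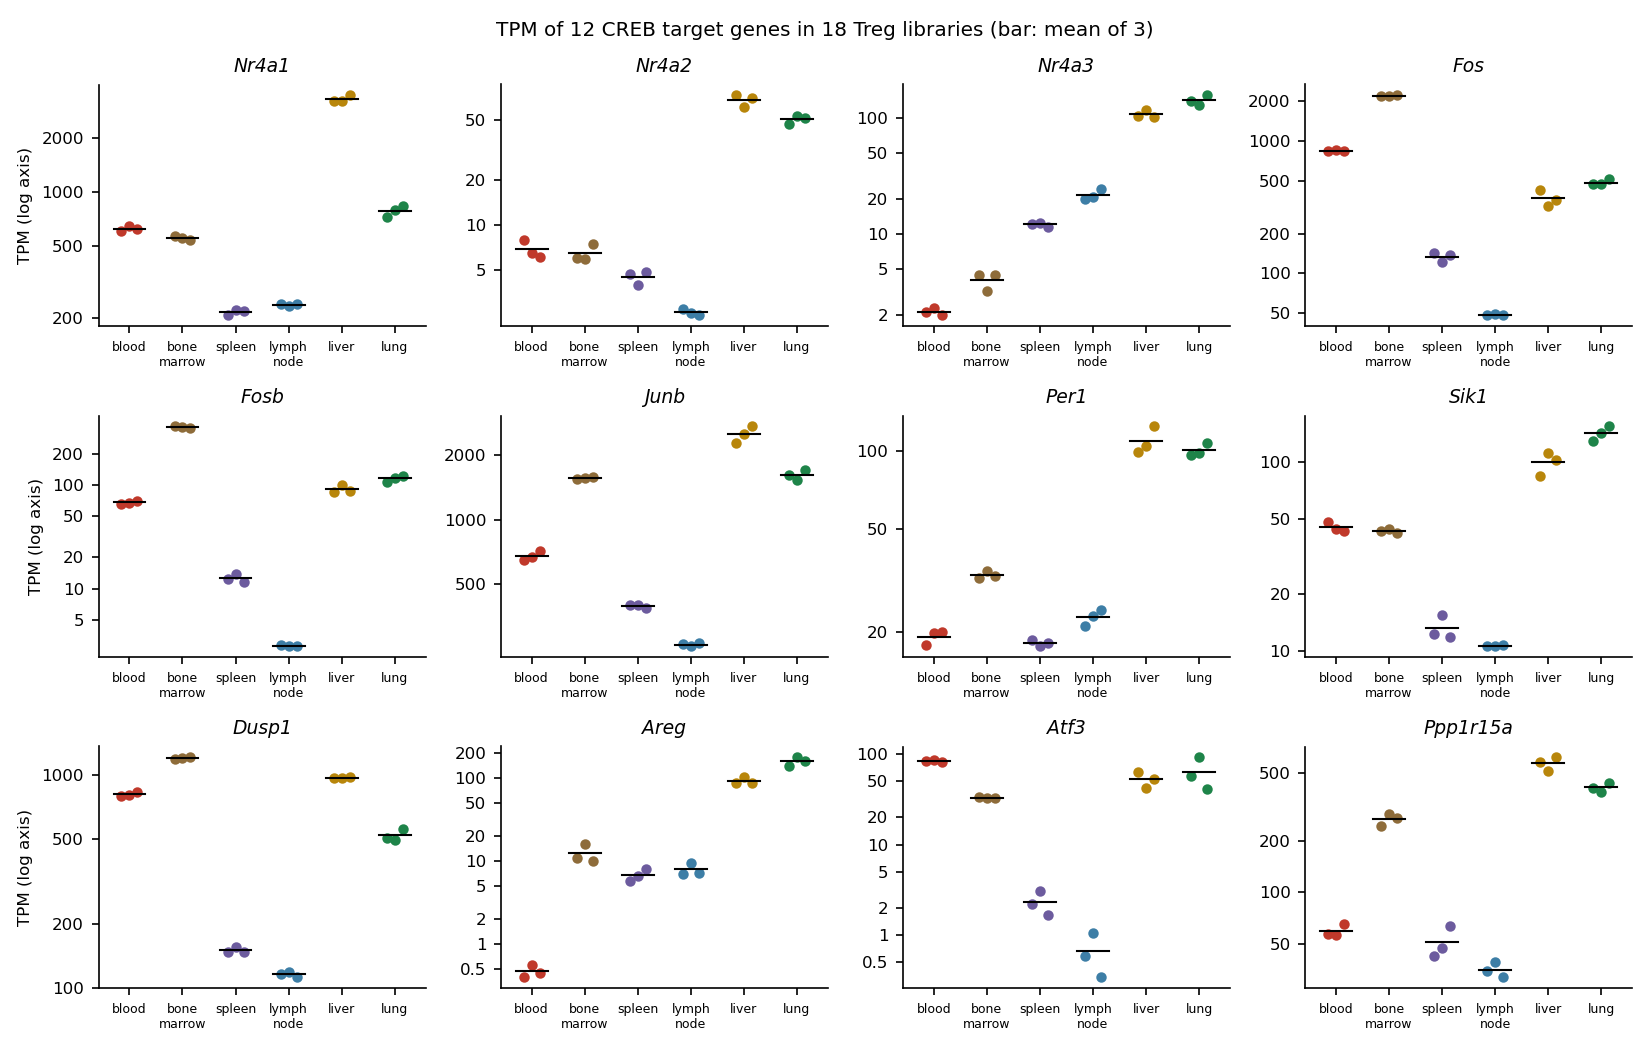
TPM of 12 CREB target genes by site on log axes, with 1 point per library and a bar at the mean of 3. All 12 are higher in lung than in spleen and lymph node, where 18% and 14.9% of all genes were called higher. Only 3 have their highest mean in lung, while 5 have it in liver, 3 in bone marrow and 1 in blood.

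Promoter windows differed in what they held of the cAMP response element. RefSeq windows were found for 6 of the 8 genes, 9 windows in all, not for Crem or Pde3b. The core motif was in 3 of the 9 (Ramp1, Pde4b and Vipr1) and the full palindrome in 0. Of the CREB targets, 11 of 12 genes had windows, all but Sik1, and each of their 12 windows held the core, against 20.8% of all windows. The full palindrome was in 3 of them, those of Dusp1, Areg and Ppp1r15a. All 12 genes were listed as targets of factors that bind this motif, so nothing is read from these shares. The Areg window, shown as the target nearest to Crem in its order of sites, is chr5:91139349-91139648 on the plus strand, with the palindrome beginning at position -61. A match is only a match of letters.
Areg: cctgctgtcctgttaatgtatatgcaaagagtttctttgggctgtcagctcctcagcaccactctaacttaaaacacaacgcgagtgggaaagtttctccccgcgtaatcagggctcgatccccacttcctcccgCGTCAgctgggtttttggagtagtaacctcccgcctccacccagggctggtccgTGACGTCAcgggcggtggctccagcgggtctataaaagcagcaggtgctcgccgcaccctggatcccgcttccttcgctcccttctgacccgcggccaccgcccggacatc

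The likeness of expression profiles was described by Pearson's r of log2(TPM + 1) over the 18 libraries, among 9595 genes whose highest site mean was 10 TPM or more. The points fall into 6 sites, with replicates of a site close together, so that r mainly reads the order of the sites. Among the genes most like Crem were Slc3a2 (r = 0.984), Ctla4 (0.977), Nfkbiz (0.974) and Hilpda (0.973). The genes most like Ramp3 were Gpr132 (0.99), Dgat1 (0.989), Nfkbiz (0.987), Ell2 (0.983) and Rnf125 (0.981). Ctla4, the inhibitory receptor of Treg cells, had means of 1486 TPM in lung, 1064 TPM in liver and 133.9 TPM in blood.

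Among the members, r between Crem and Ramp3 was 0.966 and between Crem and Pde4d 0.944. It was 0.621 for Crem and Pde3b, 0.565 for Crem and Pde4b, and 0.125 for Crem and Calcrl. Ramp1 ran against these, with r of -0.742 with Crem and -0.86 with Ramp3, and Vipr1 had r of -0.485 with Crem. Calca had r of 0.97 with Crem and 0.946 with Ramp3. For the remaining members the nearest profiles were Gabpb1 (0.984) and Got1 (0.983) for Pde4d, Osbpl8 (0.963) and Mier1 (0.958) for Pde4b, and Acod1 (0.964) and Ets2 (0.959) for Pde3b. Ramp1 was nearest to Tsnax (0.973) and Ifi35 (0.97). Calcrl was nearest to Hbp1 (0.885) and Pcmtd1 (0.87), and Vipr1 to Eps15l1 (0.845) and Arhgap45 (0.839), lower values than for the other 6 genes.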

How the data were processed

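Each of the 18 libraries came with a table of 1 TPM value per gene for 55487 Ensembl gene IDs, deposited by the authors, a length-normalised abundance with the same total in every library. Per the submitters' processing notes STAR, RSEM and mm10 were used. Their versions, the annotation, the strand setting and any filter are not given in the sources used here, and TPM keeps no depth. Symbols were matched for 55141 IDs. The 8 members and the pathway, marker and scaling lists were chosen with earlier results of these data known. The members therefore carry no test, and nothing is read from counts of calls over the pathway lists. Pathway genes were fitted with limma 3.58.1 (R 4.3.3) on log2(TPM + 1), with 6 site means over all 18 libraries, an intensity trend and robust variance moderation, for genes whose highest site mean was 1 TPM or more. Lung was compared with each of the 5 other sites, and p-values were Benjamini-Hochberg adjusted over 16694 genes, with 0.05 as the threshold. A log2 difference on this scale understates the change of low genes.

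Within each role list, named genes were those called in the same direction in all 5 comparisons (up to 4 per direction), up to 2 per direction and comparison with the largest difference and at least 10 TPM, and the most abundant one. Ramp2, Gnas, Atf1, Vip, Iapp, Adm, Nr4a2, Per1 and Ppp1r15a were named outside this rule after their values were seen. Likeness partners were the highest r, 5 for Crem and Ramp3 and 2 for each other member, leaving out genes named by number. The alternatives were a pseudocount of 0.1, no filter, scaling to 20 T cell genes or by the median ratio, library weights, a replicate block, leaving out each library, and a fit of only the 2 sites compared. The fit was tested on simulated data. Some genes that the rules would name are not reported here. Replicate numbers did not pair the libraries.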

Additional observations from a re-analysis of the deposited data

How the results depend on the processing

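Counts of calls were compared by ratio and member differences, which carry no test, by the spread between replicates. By these measures 545 values lay within 1.5 times the main count or within 1 SD. Larger moves among the 69 pathway genes came with T cell gene scaling. There the count higher in lung against blood was 14. The counts lower in lung were 5 against spleen, 6 against lymph node and 10 against liver. Over all 16694 genes, that scaling gave 1212 higher against blood. It gave 2282 lower against spleen, 2036 against lymph node and 2033 against liver. With library weights the lung and liver comparison gave 19 calls, 9 higher and 10 lower, and with only the 2 sites compared it gave 18, 9 higher and 9 lower, while the count lower than in spleen was 5. These last fits use 6 libraries, and for the others the cause was not tested. With T cell gene scaling Gnai3 turned to -0.15 against blood, and Gnai2 to 0.07 against spleen and 0.04 against lymph node. Of 132 calls of named genes, each 1 gene in 1 comparison, 36 were lost under at least 1 alternative, from 23 genes.

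The difference between lung and the mean of the other 5 sites went, with median-ratio scaling, from -1.06 to -0.95 for Ramp1 and from 1.01 to 1.14 for Pde4b. For Calcrl it was 0.07, and between -0.11 and 0.24 when each library was left out, the lowest without lung replicate 3. Leaving out each library gave 53 to 60 pathway genes over the 6 sites, 43 to 51 against blood, 36 to 43 against bone marrow, 36 to 42 against spleen, 38 to 44 against lymph node and 31 to 37 against liver.

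Libraries of the same replicate number did not deviate together by r, which ran from -0.034 to 0.03 over 45 pairs. Out of the 3 libraries of the other site, a library correlated best with its own number in 20 of the 45. Among the 15 pairs with lung it did so in 8. With the replicate number as a block, the counts higher and lower in lung were 23 and 23 against blood, 19 and 18 against bone marrow, 32 and 8 against spleen, 28 and 14 against lymph node and 19 and 17 against liver. Depth is unknown, so no limit from counting can be given.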
